A study of Mus musculus with 12 samples.

Results

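The subject is a set of 86 probes, for 85 of the 7253 genes named on the array. Their level in mouse liver was above fed on 4 arrays of early fasting, and near or below the fed level at 72 hours. A probe is one of the spotted oligonucleotides of an Agilent mouse array, and its level is the ratio of a liver sample to a common reference. A probe belonged to the set when the mean of 4 arrays, 12 h replicates 1 and 3 and 24 h replicates 1 and 2, lay at least 0.3 above the fed mean in the deposited log10 ratios, which is a 2.00-fold difference. In addition each of the 4 arrays had to lie above all 3 fed arrays, and the 72 h mean had to lie at most 0.1 above the fed mean. Of 9196 probes with a gene name, 369 met the early criteria. The 72 h limit then left 86, which is 0.935% of the named probes, and the other 283 lay above that limit at 72 h. The members were thus chosen by these measured values, and every difference from fed liver on the arrays of the rule is given as a description without a test.

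The livers came from male FVB mice aged 6 weeks that were fed or had been without chow for 12, 24 or 72 hours, with 6 mice in each group and 3 arrays per group. No mutation or drug is named for any group, and from 24 h of fasting an infrared lamp kept the animals warm. Each array held Cy3-labelled RNA pooled from 2 livers against Cy5-labelled RNA pooled from 6 fed livers, so a spread between arrays is not a spread between mice. Whole liver was used, in which fewer cells of one type and less RNA per cell cannot be told apart. Of 8 hepatocyte marker genes sought, Apoa1 and Ttr had a named probe, and both were well above background on all 12 arrays, at 118.6 to 1552 and 61.9 to 1433 times the local background. All 13 probes found for markers of other cell types were also well above background, at 2.94 to 202.9 times. On the log2 scale these 13 probes lay between -0.43 and 0.48 of the fed mean over the 4 early arrays. At 72 h they lay between -1.35 (Cd74) and 0.31 (a Col1a2 probe), while the other Col1a2 probe lay at -0.41. Of the hepatocyte markers, Apoa1 lay at 0.05 early and 0.15 at 72 h, and Ttr at -0.65 and -1.35. The part of these shifts in the results was not tested.

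When food is withdrawn, adipose tissue releases fatty acids and the liver takes them up, activates them to acyl-CoA, carries them into mitochondria as carnitine esters and shortens them by beta-oxidation. The nuclear receptor PPAR-alpha is the fatty-acid sensor that switches on many of these genes in fasting liver. Chaperones fold proteins in the cytosol and in the endoplasmic reticulum, and their genes answer to an excess of unfolded protein.

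A pair of arrays of the early groups stood apart and had no part in the rule. The scanner images of 12 h replicate 2 and 24 h replicate 3 had the lowest median signal over background, 4.72 and 3.5, against 5.34 to 10.6 on the other 10 arrays. According to the file headers the 12 images were quantified on 3 days. The 4 early arrays of the rule shared a day on which no fed array was quantified, so early fasting and that day cannot be told apart for them. The pair with low signal was quantified together with fed replicate 1, and the 72 h arrays together with fed replicates 2 and 3. Across the 12 arrays the lowest correlation between a pair, over 11150 probes, was -0.31. The study states the dyes, so ratios are given as sample over reference throughout.

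Values from here on are log2 ratios of sample over reference after background correction and quantile normalization, unless log10 is stated. On this scale the median member lay 0.87 above the fed mean on the 4 early arrays, a 1.83-fold difference, with a range from 0.37 to 1.85. The median SD between arrays was 0.24 in the fed group and 0.23 among the 4 early arrays. At 72 h the median difference was 0.05, with a range from -0.99 to 0.28 and a median SD of 0.27. Here 32 members lay below the fed mean and 54 above it. Spots marked as outliers had no value, which touched 10 members on at least 1 array. Of 79 members with all fed and early values, 77 had every one of the 4 early arrays above every fed array on this scale. The rule had asked for this in the deposited ratios of the same arrays, so the count follows largely from the choice of members.

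**Figure D1:**
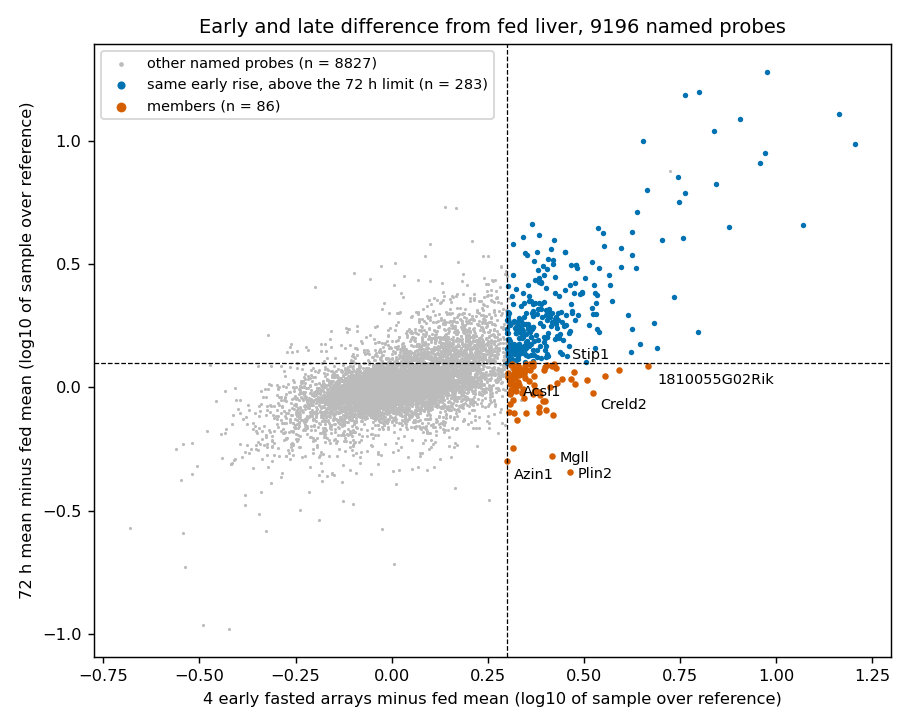
Each point is a named probe, with the mean of the 4 early fasted arrays minus the fed mean on the horizontal axis and the 72 h mean minus the fed mean on the vertical axis, both as deposited log10 ratios. The 86 members lie right of the dashed line at 0.3 and under the dashed line at 0.1, and Plin2, Mgll and Azin1 lie lowest at 72 h; grey points right of 0.3 had an early array that was not above all fed arrays.

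Among the functional lists the largest shares of members were in other PPAR-alpha target genes, with 23.5%, and in mitochondrial fatty-acid oxidation, with 21.1%. Of 19 probes on the array for mitochondrial fatty-acid oxidation and the carnitine shuttle, 4 were members, and 0.935% of all named probes were. Over the 19 probes the median difference from fed was 0.33 on the 4 early arrays and -0.03 at 72 h, beside 0.03 and 0.01 over all named probes. On the low-signal arrays, 12 h replicate 2 and 24 h replicate 3, the 19 probes had medians of -0.74 and -0.38. All named probes had -0.21 and -0.10 there. One further probe of the group, for Acadm, met the early criteria and stayed above the 72 h limit.

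Acsl1, which activates long-chain fatty acids to acyl-CoA, had log2 ratios of -0.11, 0.15 and -0.63 in fed liver. Its values were 1.81 and 1.69 on 12 h replicates 1 and 3, and 0.92 and 0.90 on 24 h replicates 1 and 2. At 72 h they were -0.51, 0.25 and 0.15. The early arrays thus lay above all fed arrays, the 72 h arrays overlapped with fed, and the 4-array mean was 1.53 above fed, or 2.89-fold. On the 2 low-signal arrays Acsl1 stood at -0.39 and -0.48, inside the fed range.

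Cpt2, the inner-membrane enzyme that converts the carnitine esters back to acyl-CoA, read 0.31, 0.52 and -0.34 in fed liver. On the 4 early arrays, in the order 12 h replicates 1 and 3 and 24 h replicates 1 and 2, it read 1.62, 1.19, 1.23 and 1.11, and at 72 h it read -0.65, -0.20 and 0.44. The early values were 2.18-fold above fed in the mean, while fed and 72 h overlapped. Acadl, the long-chain acyl-CoA dehydrogenase of the first oxidation step, lay 1.00 above fed early and 0.27 above fed at 72 h. Eci1, an isomerase needed for unsaturated fatty acids, lay 0.84 above fed early and 0.10 above fed at 72 h. A further member is named Eci3 in some of the files and Eci2 in the others, both isomerases of the same family. It is described on the array as a peroxisomal isomerase, and because its names conflict it was counted in no list. It lay 0.97 above fed early.

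The 18 probes listed for peroxisomal lipid enzymes did not include the probe named Eci3 or Eci2. Of the 18, 1 was a member, and 1 more met the early criteria but stayed above the 72 h limit. The median of the 18 probes was 0.43 above fed on the 4 early arrays and -0.08 at 72 h. On 12 h replicate 2 and 24 h replicate 3 it was -0.13 and -0.08. The probe above the limit was for Ehhadh, an enzyme of peroxisomal oxidation.

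Among 17 probes for other PPAR-alpha target genes, 4 were members and 3 more met the early criteria but stayed above the 72 h limit. Over the 17 probes the median difference from fed was 0.21 on the 4 early arrays and -0.002 at 72 h. On 12 h replicate 2 and 24 h replicate 3 it was 0.27 and 0.43, above fed, where the mitochondrial list lay below fed. Of the 17, 11 had an early mean above fed, beside 5127 of all 9196 named probes. Members were Plin2, Mgll, Slc22a5 and the receptor Ppara itself, and the 3 above the limit were Lpin1, Retsat and Acot1. Ppara read 0.39, 0.01 and -0.13 in fed liver, 1.4, 1.11, 0.88 and 1.23 on the 4 early arrays and -0.80, -0.08 and 0.52 at 72 h. Its early values were clear of the fed values, and its 72 h values spread on both sides of them.

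Plin2, which coats lipid droplets, had the lowest level of all members at 72 h relative to fed. It read 1.14, 0.71 and 0.10 in fed liver, 2.76, 1.99, 1.61 and 1.61 on the 4 early arrays, and -0.53, -0.47 and -0.02 at 72 h. Each 72 h value was below each fed value, and the mean at 72 h was 0.504-fold of fed. Mgll, which splits monoacylglycerols, read 0.19, 0.34 and -0.44 in fed liver and 1.70, 1.14, 0.88 and 1.14 on the 4 early arrays. At 72 h it read -1.42, -0.89 and -0.03, so that 1 of the 3 values fell in the fed range. Slc22a5, the plasma-membrane carnitine transporter, was tight on the 4 early arrays, at 1.30, 1.14, 1.22 and 1.34, against 0.37, 0.04 and -0.03 in fed liver. It also read 1.63 on 12 h replicate 2, above all fed arrays, and 0.31 on 24 h replicate 3, within the fed range.

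**Figure D2:**
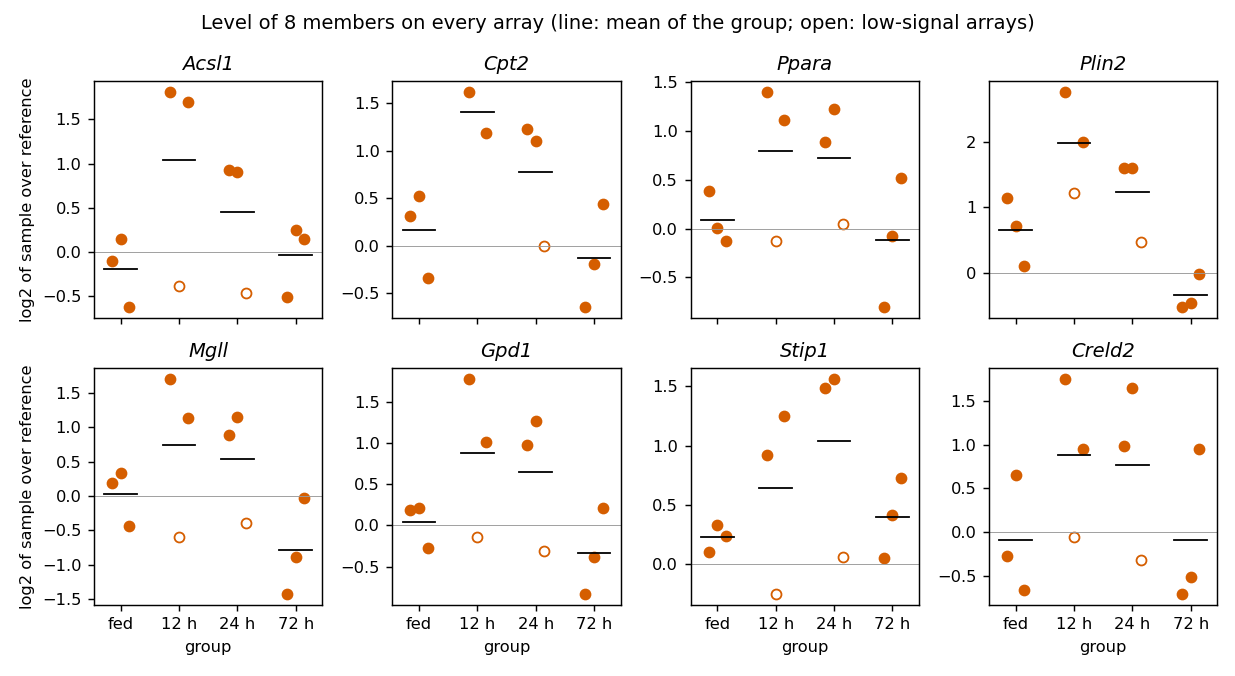
Each panel shows 1 member with its log2 ratio of sample over reference on all 12 arrays by group, a line at the group mean and open circles for the 2 low-signal arrays, of which Cpt2 has no value at 12 h. The filled 12 h and 24 h points lie above the fed points in every panel, and the open ones lie at or near the fed range or below it, apart from Plin2 at 12 h.

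Around this core stood members that handle glycerol, acyl chains and redox equivalents. Gpd1, which links glycerol phosphate to dihydroxyacetone phosphate in the cytosol, lay 1.22 above fed early and 0.38 below it at 72 h, recorded as -0.38. Gk, glycerol kinase, lay 1.19 above fed early with an SD of 0.24 among the 4 arrays. Aldh3a2, which oxidizes fatty aldehydes, read 0.85, 0.34 and 0.24 in fed liver and 2.03, 1.48, 1.35 and 1.58 on the 4 early arrays. It was the only member among 27 probes for conjugating and aldehyde-oxidizing enzymes. Hsdl2, a peroxisomal dehydrogenase-like protein, lay 1.18 above fed on 3 early arrays, with no value on 12 h replicate 1. Pcyt1a, which makes CDP-choline for phosphatidylcholine, lay 0.71 above fed, and Cyp7b1, the oxysterol 7-alpha-hydroxylase of bile acid synthesis, 0.97.

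Of 150 probes for solute carriers, 3 were members, or 2.00%. Beside Slc22a5 these were Slc25a22, a mitochondrial glutamate carrier, and Slc25a13, the aspartate-glutamate carrier of the malate-aspartate shuttle. Slc25a22 lay 1.25 above fed early and Slc25a13 1.02. Slc25a13 was also the only member among 32 probes for the urea cycle and amino-acid catabolism, of which 14 more met the early criteria and stayed above the 72 h limit. The urea-cycle list thus had a median of 0.68 on the 4 early arrays and 0.42 at 72 h, where the list for mitochondrial fatty-acid oxidation had 0.33 and -0.03. On 12 h replicate 2 and 24 h replicate 3 the urea-cycle list had -0.37 and -0.37.

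Chaperones formed the next group. Of 46 probes for heat-shock proteins and cytosolic or mitochondrial chaperones, 3 were members, which is 6.52%, and 8 more met the early criteria and stayed above the 72 h limit. Members were Stip1, Hspa4l and Tcp1, and the ones above the limit included Hsp90aa1, Hspa8 and Fkbp5. Stip1, which hands client proteins from Hsp70 to Hsp90, read 0.11, 0.33 and 0.24 in fed liver and 0.92, 1.25, 1.49 and 1.56 on the 4 early arrays. At 72 h it read 0.05, 0.41 and 0.73, on both sides of the fed values. Hspa4l, a relative of Hsp110, lay 0.80 above fed early, and Tcp1, a subunit of the cytosolic chaperonin, 0.79. Hikeshi, which carries Hsp70 into the nucleus, was a member outside the list at 0.81.

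Of 29 probes for chaperones of the endoplasmic reticulum and the unfolded-protein response, 2 were members, or 6.90%, and 2 more stayed above the 72 h limit. Creld2, a secreted protein of endoplasmic-reticulum stress, read -0.28, 0.65 and -0.66 in fed liver, 1.76, 0.95, 0.99 and 1.65 on the 4 early arrays and -0.71, -0.52 and 0.95 at 72 h. Its early mean was 2.70-fold above fed, but its spread was among the widest, with an SD of 0.68 in fed liver and 0.91 at 72 h. Sel1l, an adaptor that returns misfolded proteins to the cytosol, lay 0.94 above fed with no value on fed replicate 2. The other Sel1l probe lay at -0.14 on the 4 early arrays. Ganab, a glucosidase that trims new glycoproteins, lay 0.88 above fed.

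Sequences before the start of transcription are shown for 2 members, 1 from each main group. Of the 85 genes, 68 matched the RefSeq promoter table of mouse build GRCm38.p6, and the 250 bases before each start were searched on both strands. Promoters on 1 chromosome were left out, so genes there are not among the 68. All shares are over the remaining promoters. The endoplasmic-reticulum stress element, CCAAT and CCACG with 9 bases between them, is a site through which unfolded protein is known to switch on genes, and it was sought for the chaperones. It occurred in 1 of the 68 genes, Creld2, in 0.186% of the 5383 genes with a named probe and in 0.113% of all 32851 promoters. The half-site AGGTCA, on which nuclear receptors such as PPAR-alpha bind, occurred in 5 of the 68 genes, or 7.35%, in 12.9% of the genes with a named probe and in 14.02% of all promoters. The 5 were Plin2, F5, Prss23, Rab43 and Ube2b. In the sequences below, capitals mark these motifs, which lie on the opposite strand in both. The Creld2 window is chr15:88819396-88819645 on the plus strand and the Plin2 window is chr4:86670060-86670309 on the minus strand.
Creld2: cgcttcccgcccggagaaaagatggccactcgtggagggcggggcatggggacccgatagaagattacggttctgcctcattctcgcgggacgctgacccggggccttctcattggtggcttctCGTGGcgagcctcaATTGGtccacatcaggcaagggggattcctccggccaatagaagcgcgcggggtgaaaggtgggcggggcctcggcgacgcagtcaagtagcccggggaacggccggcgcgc
Plin2: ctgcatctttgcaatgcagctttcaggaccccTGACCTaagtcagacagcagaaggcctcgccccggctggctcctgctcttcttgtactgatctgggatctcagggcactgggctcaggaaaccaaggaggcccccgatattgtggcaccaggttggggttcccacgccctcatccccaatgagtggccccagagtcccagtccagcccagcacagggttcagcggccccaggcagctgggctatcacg
The element of Creld2 ends 108 bases before the start, and the half-site of Plin2 ends 213 bases before it. The half-site repeated after 1 base was in 0 of the 68 windows, in 0.0743% of genes with a named probe and in 0.0335% of all promoters. The heat-shock element, GAA, TTC and GAA with 2 bases between neighbours, was in 0 of the 68, in 0.483% of genes with a named probe and in 0.466% of all, and its short form GAANNTTC in 2 of the 68, or 2.94%, in 5.94% of genes with a named probe and in 6.69% of all. CACGTG was in 8 of the 68, or 11.8%, close to the 10.8% of genes with a named probe, and in 6.02% of all promoters. CCAAT, which is also part of the endoplasmic-reticulum stress element, was in 28 of the 68, or 41.2%, close to the 41.7% of genes with a named probe, and in 33.8% of all promoters. A match is a description of letters in this window and not a measured site.

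The remaining members covered transport, protein turnover and the nucleus. Of 184 probes for the secretory pathway and vesicle transport, 4 were members, or 2.17%: the small GTPases Rab43, Rab6a and Arf4, and the lipid-binding protein Sec14l2. They lay between 0.87 and 1.00 above fed on the 4 early arrays. Of 95 probes for ubiquitin enzymes, 2 were members, or 2.11%, the conjugating enzyme Ube2b and the ligase Nedd4. Lamp2, a membrane protein of the lysosome, was the only member among 59 probes for lysosome and autophagy and lay 1.03 above fed. Tpp1, a lysosomal peptidase that this list did not hold, was also a member and lay 1.00 above fed. Irs1, the docking protein of the insulin receptor, lay 0.68 above fed and was 1 of 27 probes for the insulin and IGF axis. F5, coagulation factor V, lay 1.22 above fed and was 1 of 27 probes for plasma proteins. Srsf1, a splicing factor, was 1 of 119 probes for RNA splicing, at 0.72. Ccng1 and Ccnb2, both cyclins, were 2 of 96 probes for the cell cycle, at 0.65 and 0.53.

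No member came from the lists for the TCA cycle with 31 probes, the electron-transport chain with 58, glycolysis and gluconeogenesis with 23 or cholesterol synthesis with 27. The same held for cytosolic ribosomal proteins with 63, the proteasome with 44, ketone-body formation with 3 and fatty-acid synthesis with 17. It also held for translation factors with 71, antioxidant enzymes with 26, immediate-early factors with 22 and glucocorticoid targets with 14. The last were apolipoproteins with 13 and the circadian clock with 12. Since 0.935% of all named probes were members, a count of 0 in a list of this size is no result about the list. Of the 86 members, 30 were in at least 1 of the 31 functional lists and 56 in none. Members in no list included the largest early difference, 1810055G02Rik, with 0.07, -0.06 and -0.17 in fed liver and 1.99, 1.42, 1.63 and 2.14 on the 4 early arrays. It stood 3.60-fold above fed early and read -0.19, 0.48 and 0.19 at 72 h. Lgals8, a sugar-binding galectin, lay 1.39 above fed, and Tgoln2, a protein of the trans-Golgi network, 1.19. Cald1, which binds actin and tropomyosin, was a member with 2 probes, at 1.36 and 0.91. Nsmf, which signals from synapse to nucleus in neurons, and Chd8, a chromatin remodeller, lay 1.06 and 0.57 above fed.

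Other members outside the lists are named here by their known roles, a grouping made after their values were seen. Among lipid and membrane proteins, Abhd3, a phospholipase, lay 1.10 above fed on the 4 early arrays, and Hacd2, a dehydratase of fatty-acid elongation, 0.69. Hacd2 was among the tightest members, at 0.62, 0.68, 0.62 and 0.71 on those arrays against -0.11, 0.09 and -0.08 in fed liver. S100a10, which partners annexin at the membrane, lay 1.13 above fed, and Anpep, a surface aminopeptidase, 0.70.

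Beside Cald1, other members act on the cytoskeleton and its signals. Pfn1, profilin, which binds actin, stood at 0.91, and Rac1, a small GTPase that steers actin, at 0.84. Pafah1b1, which works with the motor dynein, stood at 0.84, Macf1, which crosslinks microtubules and actin, at 0.77, and Rasa1, which switches off Ras, at 0.72.

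Members of the nucleus included Top1, the topoisomerase that relaxes DNA, at 0.96 above fed. Ptbp3, an RNA-binding splicing regulator, stood at 0.91, Morf4l2, a chromatin protein, at 0.90, Gemin4, of the complex that assembles splicing particles, at 0.87, and the transcription factor Gtf2i at 0.86. Trmt1l, a relative of tRNA methyltransferases, stood at 0.74 and Tut7, which adds uridines to RNA ends, at 0.62. Gas5, a long noncoding RNA, read 0.49, -0.07 and -0.11 in fed liver and 0.67, 0.65, 0.65 and 1.17 on the 4 early arrays. On 12 h replicate 2 it read 1.98, the highest of its values, and on 24 h replicate 3 it read -0.32, the lowest.

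**Figure D3:**
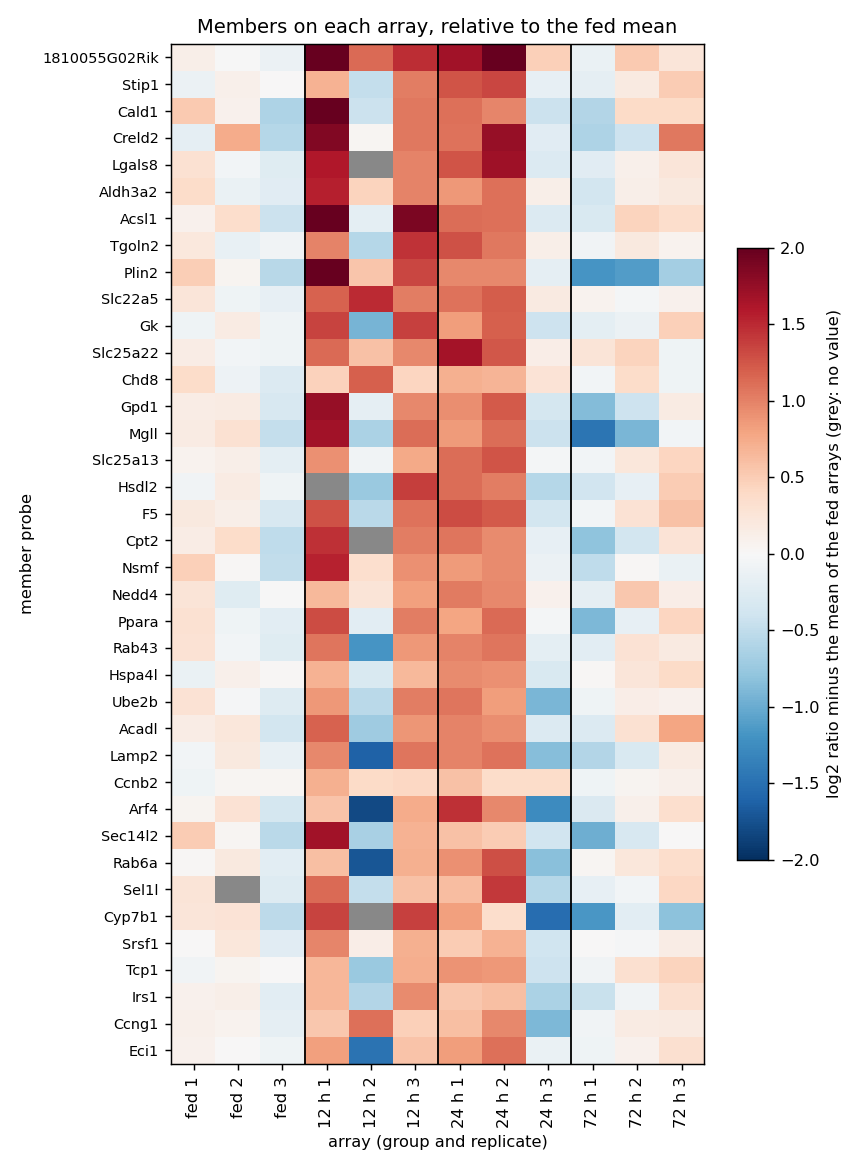
Rows are 38 members, from the 20 with the largest early difference and those of the functional lists, and columns are the 12 arrays; colour gives the log2 ratio minus the fed mean from -2 (blue) to 2 (red), and grey is no value. The 12 h replicates 1 and 3 and the 24 h replicates 1 and 2 are red wherever they have a value, whereas 12 h replicate 2, 24 h replicate 3 and the 72 h arrays are mixed.

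The 2 thresholds cut through a continuous range. Just inside the early limit in deposited log10 units were Azin1 at 0.3002, Eci1 at 0.303 and Tspan31 at 0.303. Just outside it were Acaa1a at 0.299, Mapk14 at 0.298 and Cd81 at 0.297. Acaa1a is a thiolase of the peroxisome. Just inside the 72 h limit were a probe named Acvr2a or Orc4 at 0.0981, Rac1 at 0.0951 and Hspa4l at 0.0950, and just outside it Rnf103 at 0.1001, Zmat3 at 0.102 and Traf4 at 0.103.

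The 2 low-signal arrays are samples that the rule had not used. On 12 h replicate 2 the median member lay 0.35 below the fed mean, recorded as -0.35, and on 24 h replicate 3 at -0.37. The medians over all named probes were -0.21 and -0.10 on the same arrays. Members above all 3 fed arrays numbered 23 of 77 on 12 h replicate 2, or 29.9%, beside 35.8% of all named probes. On 24 h replicate 3 they numbered 7 of 80, or 8.75%, beside 31.1%. Members below all 3 fed arrays numbered 39 of 77 and 46 of 80, or 50.6% and 57.5%, beside 52.5% and 48.9% of all named probes. The higher early level was therefore not seen on these arrays, where the share of members above fed was no larger than that of all probes. On 12 h replicate 2 the probes for markers of other cells lay between -2.60 (Cd74) and 0.79 (a Col1a2 probe) of the fed mean. The other Col1a2 probe, the higher of the 2 at 72 h, lay at -0.08, and the hepatocyte markers Apoa1 and Ttr at 0.30 and -0.92. On 24 h replicate 3 the probes for other cells lay between -1.53 and 0.67, with Apoa1 and Ttr at 0.09 and -0.45. The part of these and of the low signal in the result was not tested.

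Compared only with fed replicate 1, the fed array of the same quantification day, 25 of 83 members were higher on 12 h replicate 2 and 8 of 86 on 24 h replicate 3. The shares were 30.1% and 9.30%, beside 41.3% and 42.5% of all named probes. With the quantification day as a block in the fit, the members' median against fed turned to -0.53 at 12 h and -0.57 at 24 h, since fed and early arrays then meet only on that day.

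In the deposited ratios 5 members met the rule on all 6 arrays of 12 and 24 h. They were 1810055G02Rik, Chd8, Wdr90, Pcyt1a and Gja1, which were picked out after their values were seen. On the log2 scale Chd8 read 0.57 on 24 h replicate 3, below the 0.66 of fed replicate 1. Chd8, Wdr90, Pcyt1a and Gja1 were dim, with log2 reference signals of 6.15 to 6.99 beside a member median of 8.30. Other probes of these 4 genes lay between -0.01 and 0.32 of the fed mean early. Gja1, a gap-junction connexin, read 1.01 and 1.11 on the low-signal arrays against 0.31, 0.13 and -0.03 in fed liver. Pcyt1a read 1.70 and 1.28 there against 0.55, 0.09 and -0.17.

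**Figure D4:**
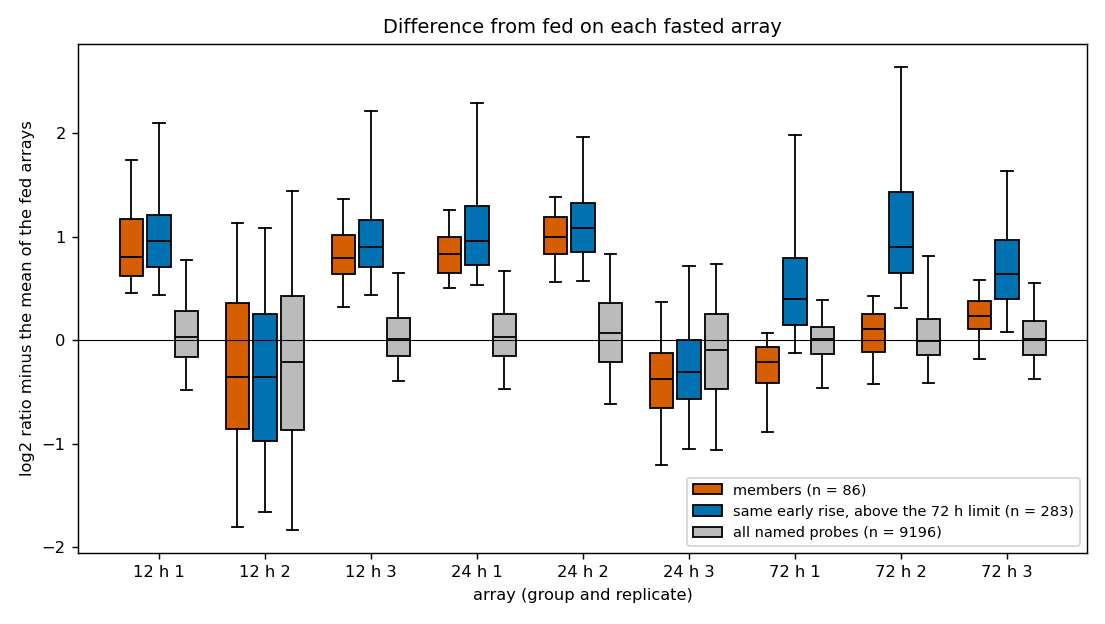
Boxes give the median and quartiles, with whiskers from the 5th to the 95th percentile, of the log2 ratio minus the fed mean on each of the 9 fasted arrays, for the 86 members, the 283 probes that met the early criteria but lay above the 72 h limit and all 9196 named probes. Members stand near 0.80 to 0.99 on the 4 arrays of the rule, at -0.35 and -0.37 on 12 h replicate 2 and 24 h replicate 3, and at -0.21, 0.10 and 0.23 at 72 h.

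The 3 arrays at 72 h differed among themselves. The median member lay at -0.21 on replicate 1, 0.10 on replicate 2 and 0.23 on replicate 3, relative to the fed mean. Members above all fed arrays numbered 4, 28 and 43 of 80 on the 3 arrays, or 5.00%, 35.0% and 53.8%, beside 24.05%, 33.3% and 33.8% of all named probes, so the level of the set at 72 h was an average over unequal arrays. Against fed replicates 2 and 3 alone, which were quantified on the same day, the medians were -0.12, 0.17 and 0.31. Of 80 members with all values, 3 had all 72 h arrays below all fed arrays and 3 had all above, beside 8.74% and 12.0% of all named probes.

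Azin1, which frees ornithine decarboxylase from its inhibitor, was among the lowest members at 72 h. It read 0.23, 0.21 and 0.13 in fed liver, 0.72, 0.83, 1.05 and 1.45 on the 4 early arrays and -0.80, -0.70 and -0.31 at 72 h. These values did not overlap between fed, early and 72 h, but on the low-signal arrays Azin1 read -1.73 and -0.86, below all 72 h values. Cyp7b1 stood at -1.05, -0.09 and -0.71 at 72 h against 0.36, 0.40 and -0.40 in fed liver, with an overlap.

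The sample and reference channels can be read apart. In the sample channel alone the members' median lay 0.88 above fed on the 4 early arrays and at -0.22 at 72 h. In the reference channel, which carried the same RNA on every array, it lay at -0.03 and -0.29. In the median of members the early difference thus lay in the sample channel. At 72 h both channels were lower than on the fed arrays, and their ratio was near 0. The 283 probes above the 72 h limit stood at 0.40 in the sample channel and -0.28 in the reference channel at 72 h. All named probes stood at 0.02 and -0.02. For the members the median SD among fed arrays was 0.61 in the sample channel and 0.53 in the reference channel. In the sample channel alone 16 of the 86 members met the rule. The cause was not tested. On the 2 low-signal arrays the sample channel was at 0.03 and 0.07 and the reference channel at 0.37 and 0.46, so the lower ratio there went with a brighter reference. Over all named probes the reference channel was at 0.03 and 0.07 on these arrays, and over the 283 probes at 0.31 and 0.38. In brightness the members were ordinary probes, with a median reference signal at the 49.7th percentile of the named probes. None was saturated on any array, and 75 of 86 were well above background on all 12 arrays.

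The rule set no condition on the difference between 24 and 12 h, which was tested over all 3 arrays of each time. The test is limited by the choice of members, since 4 of these 6 arrays each had to lie above all fed arrays, which bounds how far they can lie apart. With limma, 0 of 86 members passed an adjusted p of 0.05 with a 1.4-fold change, and 0 of all 20116 probes did, which is 0%. The smallest adjusted p among members was 0.996, and 2 members had an unadjusted p under 0.05, which 0.954% of all probes had. The median difference of members was 0.04, with a median SE of 0.45, beside 0.02 over all probes tested. Here 45 members were higher at 24 h and 41 at 12 h. With array weights limma called 0 members and 58 of all probes in either direction, which is 0.288%.

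Cyp7b1 had the lowest difference, -1.48 with an SE of 0.59 (limma unadjusted p = 0.0326 and adjusted p = 0.996), with no value on 12 h replicate 2. It read 1.48 and 1.48 at 12 h and 0.94, 0.47 and -1.40 at 24 h, and within the day of the 4 arrays the difference was -0.78. Plin2 followed at -0.76 with an SE of 0.43, and at -0.77 within that day. A probe named Mterf2 or Tmem263 came next at -0.72 (limma unadjusted p = 0.0434 and adjusted p = 0.996). At the other end stood Tspan31, a tetraspanin, at 0.75, Eci1 at 0.63 and Azin1 at 0.60, with SEs of 0.67, 0.52 and 0.68.

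On the 4 arrays of the rule alone, which describe the set without a test, the median member was 0.10 higher at 24 h, with 55 of 85 higher, where the median over all probes was 0.01 and 52.7% were higher. Both 24 h arrays lay above both 12 h arrays for 25 members and below them for 11, which all probes did in 19.2% and 14.3% of cases. Within the day of the low-signal arrays, 42 of 83 members were higher at 24 h. The level of the set at 12 and 24 h could therefore not be told apart with these arrays.

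A second probe for the same gene offered another reading. Of the members' genes, 32 had other named probes, 36 in all. For 27 of these the early mean was above fed, beside 5127 of all 9196 named probes. For 18 all 4 early arrays lay above all fed arrays. The share of all named probes that did so was not computed, so nothing is read from this count. A further count, 4, met the early criteria but stayed above the 72 h limit, beside 283 of the 9196. The 4 were for Nedd4, Swt1, Tcp1 and Ube2b. The second probe of Tcp1 lay 1.11 above fed early and 0.74 above it at 72 h, where the member probe lay at 0.79 and 0.23. For Ube2b the pairs of values were 0.99 and 0.64 for the second probe, and 0.95 and 0.04 for the member. The second probe of Lamp2 stood at 0.75 early and 0.14 at 72 h, close to the pattern of the member. For Mgll and Stip1 the second probes lay only 0.21 and 0.19 above fed early, against 1.19 and 1.08 for the members. Second probes of Sel1l, Irs1, Top1, Rab6a and Rab43 lay below fed early, at -0.14, -0.24, -0.23, -0.28 and -0.17. The member probes of these genes lay at 0.94, 0.68, 0.96, 0.88 and 1.00. Nedd4 had other probes at -0.14 and 1.34. Membership was thus a property of a probe and did not hold for every probe of a gene, and probe sequences that could relate this to transcripts were not used here.

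**Figure D5:**
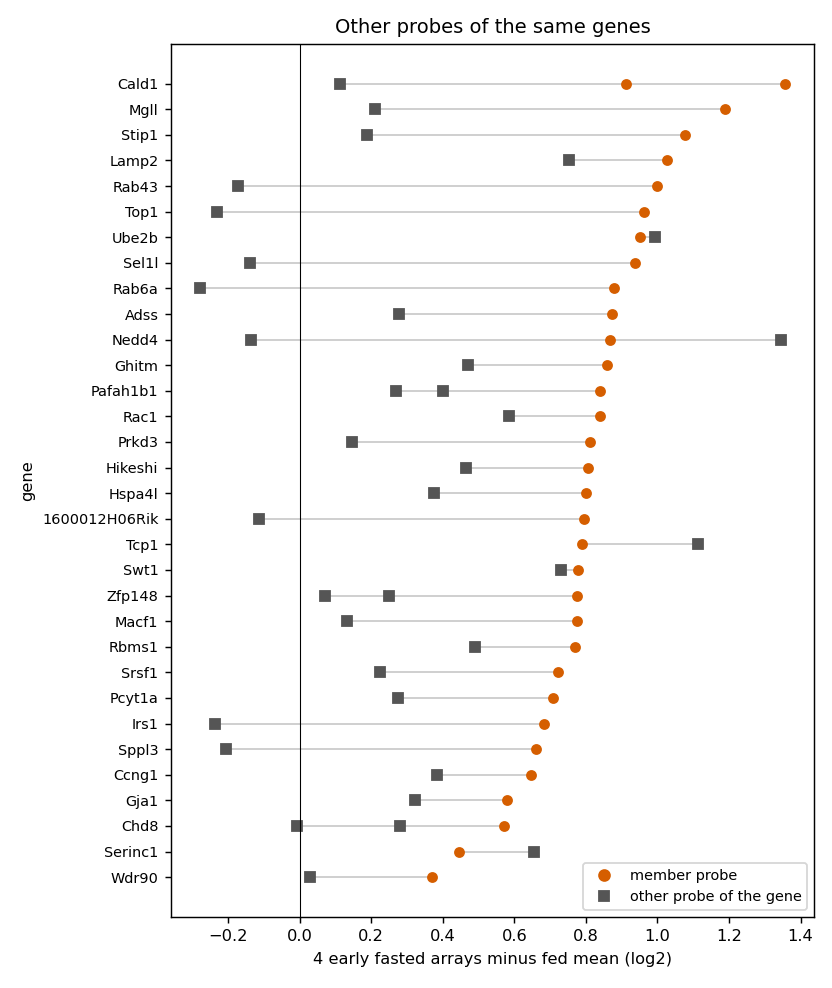
Each row is a gene with a member probe and at least 1 other named probe, and the horizontal axis is the mean of the 4 early arrays minus the fed mean on the log2 scale. Circles mark the member probes and squares the other 36 probes, 27 of which lie right of 0 and most of which lie left of their member.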

How the data were processed

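Liver RNA of fed and fasted mice was measured on 12 arrays with 2 colours, 3 per group, assigned to groups by their titles. The authors scanned the arrays and quantified the images with Feature Extraction 6.1.1. Their deposited scanner tables give intensities (medians over the pixels of a spot and of the background around it) and log10 ratios after the software's own background subtraction and dye normalization. The rule was applied to the deposited log10 ratios of sample over reference, which equal the scanner ratios with the opposite sign to within 4.98e-08. The sample was in Cy3 on every array, so dye effects do not cancel.

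From 21446 spots per array, 1075 controls and 91 retired spots were left out, which left 20280 probes, 2 retired ones that met the rule among those left out. Log2 ratios were made from the deposited intensities by normexp correction (offset 50) and quantile normalization of all 24 channels together in limma 3.58.1 (R 4.3.3). Spots that the software had marked as outliers, 24.7% and 14.1% on fed replicates 2 and 3 and at most 6.29% elsewhere, were missing. Probes well above background on all arrays of a group were fitted with lmFit and eBayes, with 1 spread for the 4 groups, and called at 1.4-fold or more with an adjusted p under 0.05 (Benjamini-Hochberg). Replicates are pools of 2 livers, and p-values measure the spread between pools. The 12 arrays limit the precision. The fit was tested on simulated data.

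The files carry 2 versions of gene names, 1 on 3 arrays and 1 on 9, and the first gave names to 9196 probes. Of these, 8781 matched a current symbol in RefSeq. For 4 members the versions disagree, and 2 members have no current symbol. Genes named were the 20 largest early differences, up to 4 per list, those extreme between 24 and 12 h, those beside the thresholds and those with second probes, and the rest were named after their values were seen. Results for some genes are not reported here. Members, lists and tests were chosen with earlier results of these data known.

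Alternatives were loess, the deposited ratios, single channels, flags kept, no filter, array weights, day or replicate blocks, other thresholds and fewer arrays.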

Additional observations from a re-analysis of the deposited data

How the results depend on the processing

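The number of named probes that met the rule moved from 86 to 27 after quantile normalization, 34 after loess and 36 in the sample channel alone, of which 25, 32 and 16 were among the 86. With an early limit of 0.2 or 0.4 it was 361 or 20, with a 72 h limit of 0 or 0.2 it was 29 or 170, with all 6 early arrays 5, and with unnamed probes included 136. Leaving out 1 array of the rule gave 53 (without 72 h replicate 1) to 125 (without 72 h replicate 2). The members' early median was 1.14 on the deposited scale, -0.027 in the reference channel and 0.45 over all 6 early arrays. It turned to -0.51 with the quantification day as a block, which is the same value as the 2 low-signal arrays against fed replicate 1. These last 3 alternatives and the count with unnamed probes were chosen after seeing the data. At 72 h the median was -0.29 in the reference channel. Counts above all fed arrays on 24 h replicate 3 were 11 in the sample channel, and 7 to 16 with a fed array left out, the highest without fed replicate 1. Between 24 and 12 h, 0 members passed under each alternative run. With array weights 58 of all probes passed, and 9 at an unadjusted p under 0.01. The median of members between these times stayed within the spread between arrays, from -0.38 without 12 h replicate 2 to 0.44 without 24 h replicate 3. Probes called at 12, 24 and 72 h against fed numbered 1, 1 and 2. The counts were 0, 0 and 0 with deposited ratios, 0 and 0 at 12 and 24 h in the sample channel, and 0 at 72 h with loess. They were 3 and 2 at 12 and 24 h with outlier spots kept, and 2 and 0 with the replicate block. They were 1741, 136 and 1120 with array weights, 4669, 2419 and 12 with the day block, 533, 1776 and 168 without both low-signal arrays, and 132, 127 and 86 at an unadjusted p under 0.01. Leaving out 1 array gave 0 to 3, 0 to 7 and 1 to 4. Same-numbered arrays of 12 and 24 h deviated from their group means with correlations of 0.63, -0.58 and -0.65. For numbers 2 and 3 a low-signal array stood against an array of another quantification day. These correlations therefore cannot show whether the numbers pair the samples. The cause of these moves was not tested. Low signal over background on 2 arrays limits what the early groups can show.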

Other observations

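Outside the named probes, 50 probes without a gene name in the version of names used by the rule met the same values, and 19 of these have a symbol in the other version. They entered no comparison.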
